A study of Mus musculus with 6 samples.

Results

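The replication-dependent histone genes were defined as all protein-coding genes of the GENCODE vM21 annotation of GRCm38 whose symbol starts with Hist1h, Hist2h, Hist3h or Hist4h, which gave 67 of 21951 protein-coding genes. They comprised 54 Hist1 genes on chromosome 13, 10 Hist2 genes on chromosome 3, 2 Hist3 genes on chromosome 11 and the single Hist4 gene on chromosome 6, and fell into 6 H1, 18 H2A, 18 H2B, 12 H3 and 13 H4 genes. H3K4me3, the histone mark of active promoters, was mapped by ChIP-seq in 2 mouse lymphoid progenitor lines, for each of which 2 H3K4me3 libraries and 1 input library were sequenced. Scid.adh.2C2 is a pro-T line of the DN3 type, subcloned from Scid.adh cells that arose as a spontaneous thymic lymphoma in CB17-Prkdc scid mice, and 230-238 is a pre-B line transformed with Abelson virus. Both are single transformed lines, so that lineage and line cannot be told apart. The deposited data held 1 combined peak list per line after filtering by the irreproducible discovery rate (IDR), with 15513 peaks in Scid.adh.2C2 and 19604 in 230-238. The lists hold neither read counts nor separate replicates, so that the spread between replicates and the depth are unknown and no test was made. A gene without a peak may still carry H3K4me3 below the calling threshold. Of 7 T cell progenitor markers, 7 had a peak within 2500 bp of a transcription start site (TSS) in Scid.adh.2C2 and 2 (Cd3d and Tcf7) in 230-238. Of 7 B cell progenitor markers, 1 (Vpreb1) had one in Scid.adh.2C2 and 7 in 230-238.

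Replication-dependent histone genes supply the histones that package newly made DNA, and they are transcribed mainly during S phase. Their transcripts typically lack introns and a poly(A) tail and end in a conserved stem-loop that is bound by SLBP, the stem-loop binding protein. The genes lie in dense clusters, where many H2A and H2B genes start back to back from a shared promoter, and they are transcribed at a nuclear body organised by NPAT together with subtype-specific factors such as HINFP for H4 genes and OCT1 for H2B genes.

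Most histone genes had an H3K4me3 peak within 2500 bp of a start in both lines. A gene was called marked when a peak overlapped the 2500 bp either side of any of its TSSs by at least 1 bp. In Scid.adh.2C2, 63 of the 67 genes were marked, beside 45.5% of all protein-coding genes. In 230-238, 57 were marked, beside 48.2%. The 57 genes of 230-238 were all among the 63 of Scid.adh.2C2, so that 57 genes were marked in both lines (42.2% of all protein-coding genes), 6 in Scid.adh.2C2 only (3.28%), none in 230-238 only (5.96%) and 4 in neither (48.6%). The 6 genes marked in Scid.adh.2C2 only were Hist1h2an, Hist1h2ao, Hist1h2bp, Hist1h2bq, Hist1h4m and Hist1h4n, and the 4 marked in neither were Hist1h2ap, Hist1h2br, Hist1h2aa and Hist1h2ba. All 6 H1 genes and all 12 H3 genes were marked in both lines, as were the 10 Hist2 genes, both Hist3 genes and Hist4h4. Of the 13 H4 genes, 13 and 11 were marked in Scid.adh.2C2 and 230-238, and of the 18 H2A and 18 H2B genes 16 and 14 each. Neighbouring genes often shared a peak, since 56 of the 80 distinct peaks near histone genes in Scid.adh.2C2 and 47 of the 71 in 230-238 lay within 2500 bp of more than 1 histone gene. The counts of marked genes are therefore not counts of independent peaks.

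**Figure D1:**
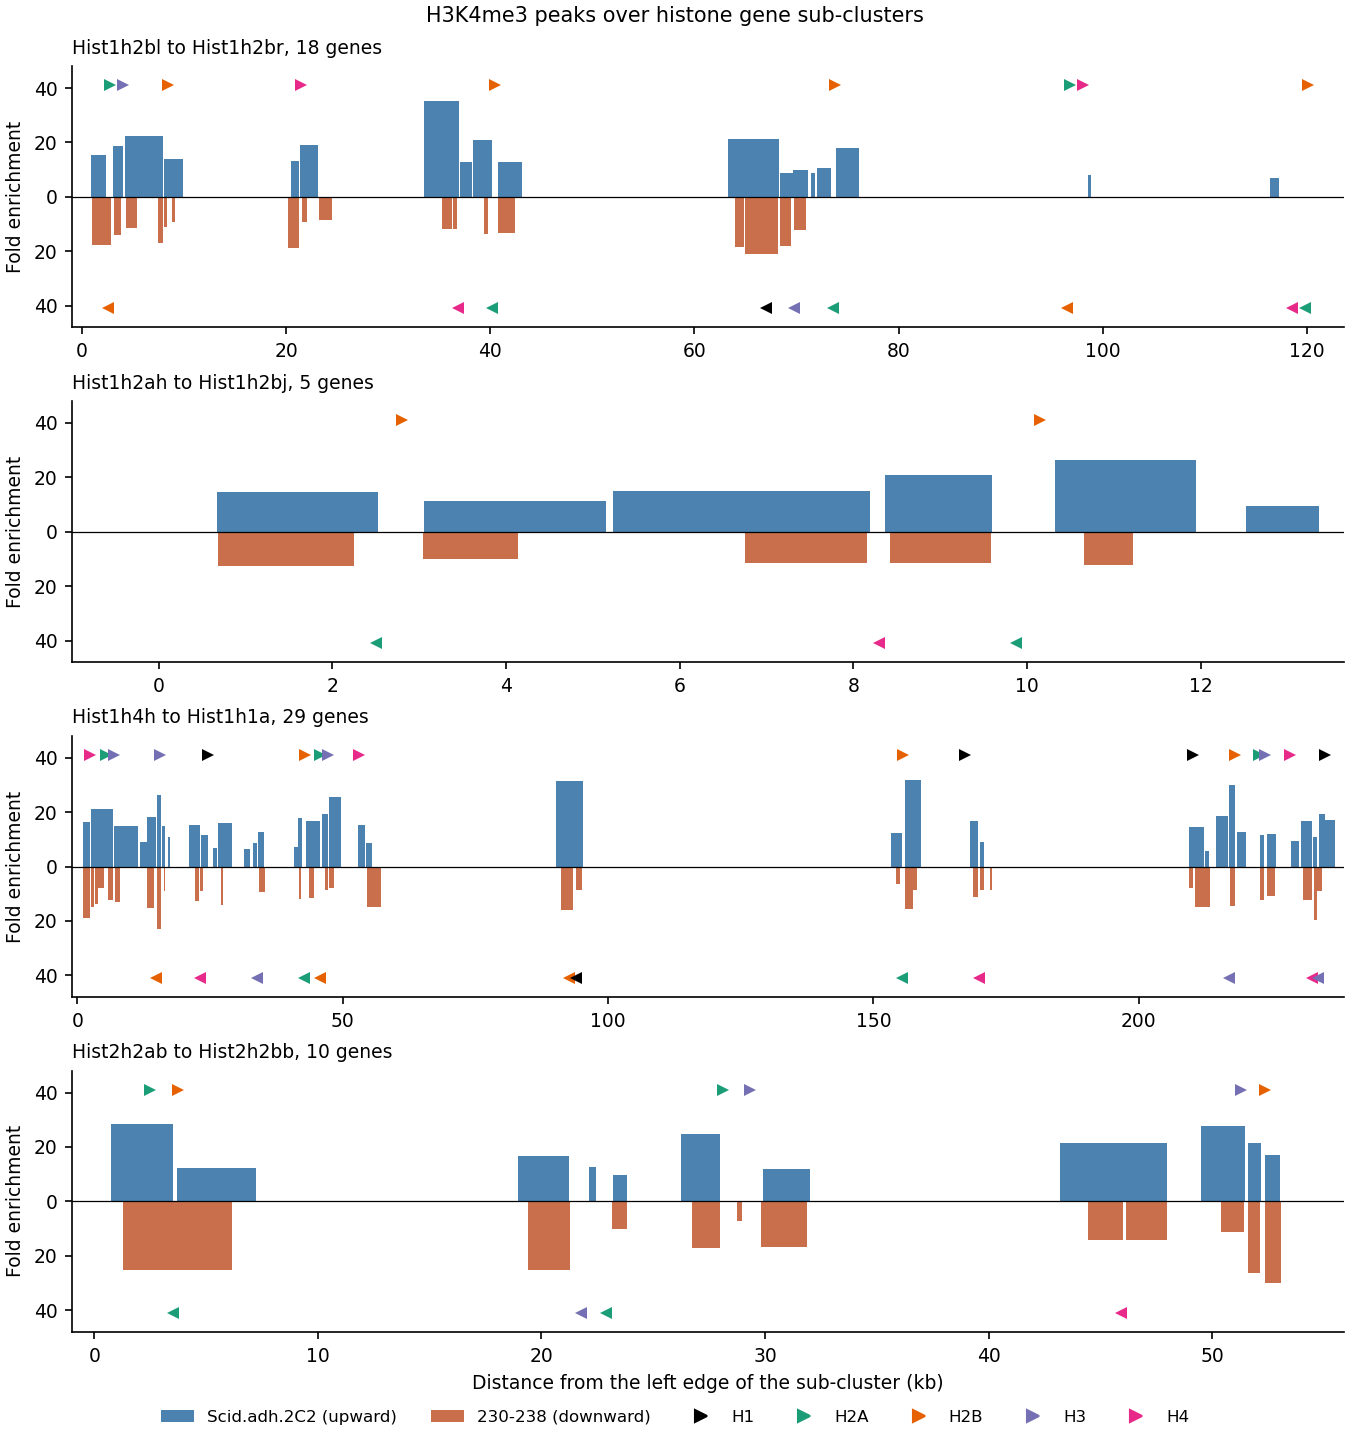
Fold enrichment (vertical axis) and extent of each peak within 2500 bp of a histone gene TSS, by distance from the left edge of the sub-cluster in kb, for the 4 sub-clusters with 5 or more genes. Bars pointing up are peaks of Scid.adh.2C2 and bars pointing down are peaks of 230-238, and triangles mark the most upstream TSS of each gene, its direction and its histone type. At the right end of the first sub-cluster, with Hist1h2bq to Hist1h2br, 2 narrow peaks lay within 2500 bp of a start in Scid.adh.2C2 and none in 230-238.

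The Hist1 genes fell into 4 sub-clusters when split at gaps of more than 100 kb, and each is given here with the 2500 bp beyond its outermost starts. The sub-cluster from Hist1h4h to Hist1h1a (chr13:23528550-23766166) held 29 genes over 238 kb, all of them marked in both lines. The sub-cluster from Hist1h2bl to Hist1h2br (chr13:21713643-21836271) held 18 genes over 123 kb, with 16 marked in Scid.adh.2C2 and 10 in 230-238. The 5 genes from Hist1h2ah to Hist1h2bj (chr13:22033068-22045714) lay within 12.6 kb and were all marked in both lines. The 10 Hist2 genes (chr3:96217365-96272252) lay within 54.9 kb. The isolated pair Hist1h2ba and Hist1h2aa had no peak in either line. The map of the sub-clusters draws only peaks within 2500 bp of a histone gene start, so that stretches without bars may hold other peaks. Counting all peaks, the span from Hist1h4h to Hist1h1a held 42 in Scid.adh.2C2 and 38 in 230-238. The Hist2 span held 14 and 12.

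Peaks at marked histone genes lay directly over a start less often than at other marked genes. Among the marked histone genes, a TSS lay inside a peak in 29 of 63 in Scid.adh.2C2 (46.0%), where this share was 94.2% over all marked protein-coding genes. In 230-238 it lay inside a peak in 17 of 57 (29.8%), beside 93.3%. When a peak was allowed to end up to 100 bp from a TSS, a distance added after the values were seen, 38 of the 63 and 24 of the 57 histone genes had one, beside 95.3% and 95.0% of all marked genes. Genes with many annotated TSSs have more chances to overlap a peak, and 63 of the 67 histone genes have only 1, so that genes with 1 TSS were also considered alone. Of 60 marked histone genes with 1 TSS in Scid.adh.2C2, 27 had the TSS inside a peak (45.0%), beside 82.4% of all marked genes with 1 TSS. In 230-238 these were 16 of 56 (28.6%), beside 79.2%. A peak on each side of the TSS and none over it was found for 28 of the 60 in Scid.adh.2C2 (46.7%), beside 5.03% of all marked genes with 1 TSS, and for 30 of the 56 in 230-238 (53.6%), beside 6.41%. The gap between these flanking peaks had a median of 538.5 bp in Scid.adh.2C2, with a range from 111 bp at Hist1h4h to 2679 bp at Hist1h2ab. In 230-238 the median gap was 800 bp, from 257 bp at Hist1h4f to 3394 bp at Hist1h1d. Histone genes are packed closely, so that a flanking peak can be that of a neighbour, and the shares over all genes are not matched for this. At Hist1h2ab the upstream peak in Scid.adh.2C2 lay 2400 bp away and was also within 2500 bp of Hist1h3c and Hist1h2bb. The GENCODE start of Hist1h1d lies 1770 bp upstream of its RefSeq start.

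Which starts lay inside a peak differed between the lines. Counting all 67 genes, 43.3% had a TSS inside a peak in Scid.adh.2C2, beside 42.8% of all protein-coding genes, and 25.4% had one in 230-238, beside 44.9%. By this stricter rule the share of histone genes was thus near that of all genes in Scid.adh.2C2 and lower in 230-238, unlike with the 2500 bp window. A TSS lay inside a peak in both lines for 13 histone genes (39.4% of all protein-coding genes), in Scid.adh.2C2 only for 16 (3.39%), in 230-238 only for 4 (5.50%) and in neither for 34 (51.7%). Among the 57 genes marked in both lines, 25 had a TSS inside a peak in neither. In Scid.adh.2C2 the median share of the coding sequence inside a peak was 82.1% over the 63 marked genes, and 25 coding sequences were covered fully. In 230-238 the median was 29.4% and 10 of 57 were covered fully. With the RefSeq start of each gene in place of the GENCODE starts, 21 histone genes in Scid.adh.2C2 and 16 in 230-238 had their start inside a peak. The starts moved little, as 66 of the 67 RefSeq starts lay within 100 bp of the most upstream GENCODE start. When peaks at most 1000 bp apart were joined, a step added after the values were seen, 54 and 38 histone genes had a TSS inside a peak.

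Around the most upstream TSS, the share of marked histone genes covered by a peak dipped near the start and was higher on both sides. In Scid.adh.2C2 it was 85.7% at 650 bp upstream, 30.2% at 100 bp upstream and 90.5% at 600 bp downstream. In 230-238 it was 71.9% at 700 bp upstream, 26.3% at 50 bp downstream and 71.9% at 550 bp downstream. These dips are the lowest values within 500 bp of the start, and in 230-238 cover was lower still at the outer edge of the window, with 22.8% at 2500 bp upstream. Peaks of neighbouring histone genes count in the cover on either side. Over all marked protein-coding genes the cover at the TSS itself was 83.3% and 80.4%, against 44.4% and 29.8% for histone genes. Cytosolic ribosomal protein genes, a set of short, strongly transcribed genes, were chosen for comparison after the histone values were seen. A peak covered their most upstream TSS in 65 of 78 marked genes in Scid.adh.2C2 (83.3%) and 60 of 75 in 230-238 (80.0%). Their cover also had a shallower dip, to 73.1% at 50 bp upstream in Scid.adh.2C2 and 72.0% at 100 bp upstream in 230-238. By any annotated TSS, 77 of 78 and 75 of 75 had a TSS inside a peak.

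Many histone genes share long identical stretches with others of their type, and reads that lie wholly within such stretches cannot be placed at 1 position. The share of 32-base stretches that occur once on the assembled chromosomes was therefore computed from the reference genome. The reads of the study were longer than 32 bases, and a longer read can be placed by bases beyond a repeated stretch. These shares therefore describe sequence identity and are not shares of placeable reads. It was a median of 15.9% in the coding sequences and 68.5% within 250 bp of the most upstream TSS. At 100 bp upstream of the TSS, the position of the dip in Scid.adh.2C2, the stretch was unique in 85.1% of the 67 genes. At 50 bp downstream, the position of the dip in 230-238, it was unique in 61.2%. The lowest uniqueness, 20.9%, was found 250 bp downstream, where 66.7% of the marked genes were covered in Scid.adh.2C2 and 38.6% in 230-238. Within the promoter windows of the histone genes, 89.3% of the stretches inside Scid.adh.2C2 peaks and 66.9% outside them were unique, and in 230-238 these shares were 91.8% and 74.6%. Between genes, the stretches within 250 bp of the TSS were unique at a median of 74.7% for the 29 genes with a TSS inside a Scid.adh.2C2 peak and 65.1% for the 34 marked genes without. In 230-238 these medians were 86.2% for 17 genes and 68.5% for 40. More than 90% of these stretches were unique in 9 of the 29 and 3 of the 34 genes in Scid.adh.2C2, and in 8 of the 17 and 4 of the 40 in 230-238. How the authors' alignment treated reads with several positions is not given in the sources used here, and the part of sequence identity in the gaps was not tested.

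**Figure D2:**
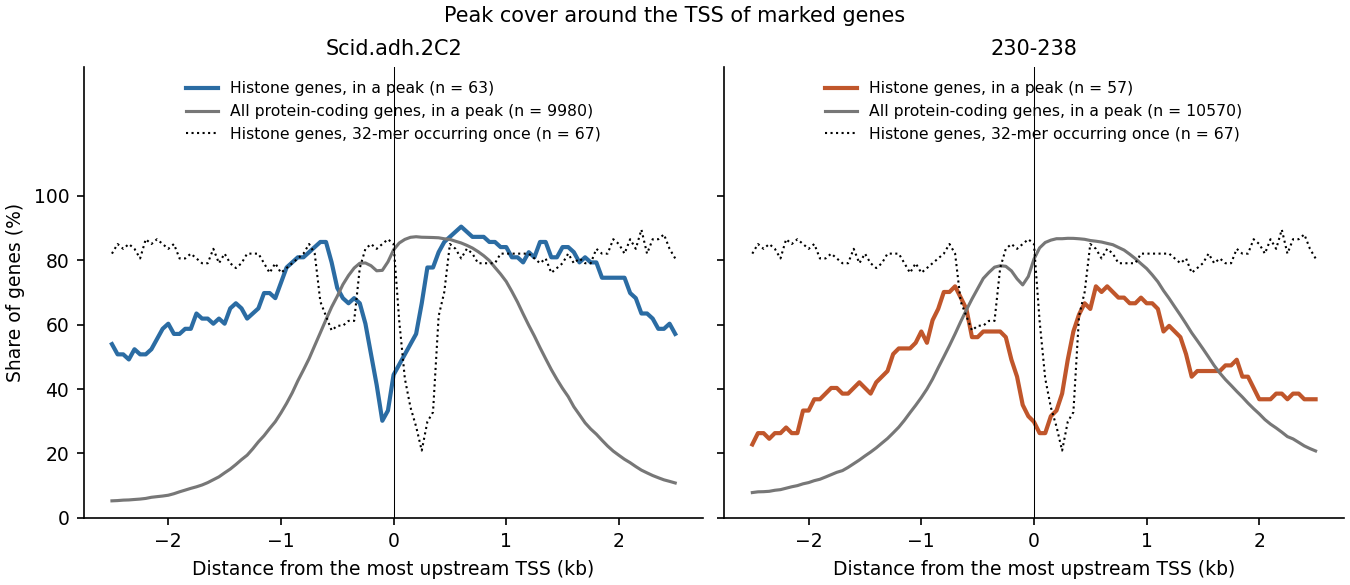
Share of marked genes with a peak over each position (vertical axis, %) against the distance from the most upstream TSS in kb, for marked histone genes (coloured) and all marked protein-coding genes (grey), in steps of 50 bp. The dotted line is the share of the 67 histone genes with a unique 32-base stretch at that position. Histone gene cover dips to 30.2% in Scid.adh.2C2 and 26.3% in 230-238 beside the start, while the lowest uniqueness, 20.9%, lies at 250 bp downstream.

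The divergent pairs showed the gap at the shared promoter directly. A divergent pair was a minus-strand and a plus-strand histone gene whose starts lie at most 1000 bp apart. There were 13, of which 12 joined an H2A and an H2B gene and 1 joined Hist1h2bh and Hist1h3f. Their starts were 176 to 660 bp apart, with a median of 268 bp. Between the starts there was no peak in 7 of the 13 pairs in Scid.adh.2C2 and in 10 of the 13 in 230-238. Leaving out the pairs with no peak near either gene, these were 5 of 11 pairs (45.5%) and 6 of 9 (66.7%). Among 1219 divergent pairs of other protein-coding genes, counted after the histone values were seen, the region between the starts held no peak in 7.64% of those with a peak nearby in Scid.adh.2C2 and in 8.42% in 230-238. The region was covered entirely in no histone pair in Scid.adh.2C2 and in 2 in 230-238, namely Hist1h2bl and Hist1h2ai, and Hist2h2ac and Hist2h2be.

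To show what lies in these regions, the sequence between the 2 starts is given for 3 pairs, read from the H2A gene to the H2B gene, with the TATA box (TATAAA), the CCAAT box and the octamer (ATTTGCAT) in capitals wherever they stand on either strand. Hist1h2ag and Hist1h2bj are a pair in which peaks flanked the region in both lines, Hist1h2ae and Hist1h2bg have the shortest region, and Hist2h2ac and Hist2h2be have the only one that was partly covered in Scid.adh.2C2 and fully covered in 230-238. Sequences and coordinates are from GRCm38.
Hist1h2ag to Hist1h2bj (chr13:22042944-22043214, plus strand): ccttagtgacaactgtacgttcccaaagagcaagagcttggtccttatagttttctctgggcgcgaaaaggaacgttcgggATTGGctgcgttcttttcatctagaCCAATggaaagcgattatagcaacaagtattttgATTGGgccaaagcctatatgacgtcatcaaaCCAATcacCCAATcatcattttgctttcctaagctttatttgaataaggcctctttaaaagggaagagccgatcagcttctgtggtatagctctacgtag
Hist1h2ae to Hist1h2bg (chr13:23571220-23571396, plus strand): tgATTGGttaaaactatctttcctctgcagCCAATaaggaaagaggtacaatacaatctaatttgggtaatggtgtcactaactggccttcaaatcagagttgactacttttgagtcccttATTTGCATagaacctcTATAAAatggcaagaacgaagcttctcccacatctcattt
Hist2h2ac to Hist2h2be (chr3:96220880-96221119, plus strand): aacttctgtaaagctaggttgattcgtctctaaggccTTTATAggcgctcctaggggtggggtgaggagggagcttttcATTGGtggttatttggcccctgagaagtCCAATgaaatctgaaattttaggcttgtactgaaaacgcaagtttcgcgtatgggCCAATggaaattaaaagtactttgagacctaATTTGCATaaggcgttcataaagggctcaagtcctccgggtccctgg
All 32-base stretches of these 3 regions were unique, as were those of all H2A and H2B pairs outside the duplicated block described further on. The gaps between flanking peaks reached beyond the regions. At Hist1h2ag and Hist1h2bj the gap was 720 bp in Scid.adh.2C2 and 1064 bp in 230-238. Of their coding stretches, 0% and 18.4% were unique. At Hist1h2ae and Hist1h2bg the gap was 810 bp and 1574 bp, and 12.3% and 11.0% of coding stretches were unique. The part of sequence identity in these gaps was not tested. Between Hist1h2ag and Hist1h2bj, 271 bases with 5 CCAAT boxes, no peak lay in either line, and the best peaks within 2500 bp of either start had a fold enrichment of 26.2 in Scid.adh.2C2 and 12.2 in 230-238. Between Hist1h2ae and Hist1h2bg, 177 bases with 2 CCAAT boxes, 1 TATA box and 1 octamer, there was no peak in either line, and the best folds were 17.8 and 12.0. Between Hist2h2ac and Hist2h2be, 240 bases with 3 CCAAT boxes, 1 TATA box and 1 octamer, 33.8% of the region was covered in Scid.adh.2C2 and 100% in 230-238, with best folds of 28.4 and 25.1.

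**Figure D3:**
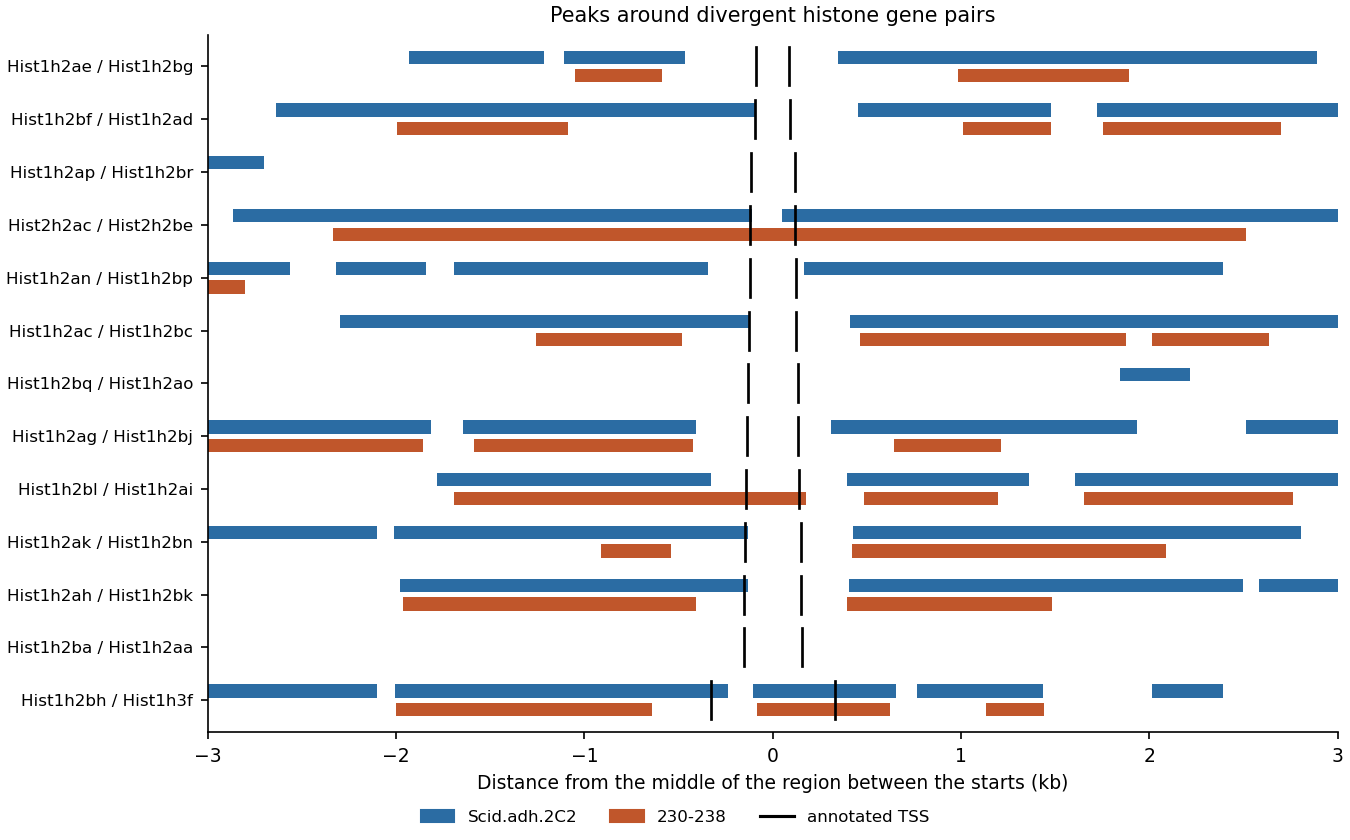
Peaks near histone genes in Scid.adh.2C2 (upper bar of each row) and 230-238 (lower bar) around the 13 divergent pairs, by distance in kb from the middle of the region between the starts, ordered from the shortest region (176 bp, top) to the longest (660 bp, bottom). Black lines mark the annotated starts. Where there are peaks, most end close to the starts, and only Hist2h2ac / Hist2h2be and Hist1h2bl / Hist1h2ai are bridged by a single peak, in 230-238.

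Histone genes had several peaks each. In Scid.adh.2C2, 34 of 63 marked histone genes (54.0%) had 3 or more peaks in the window, beside 3.77% of all marked genes. In 230-238 these were 28 of 57 (49.1%), beside 6.78%. Since the genes are packed closely, peaks of neighbours count here. Single peaks were of ordinary width in Scid.adh.2C2 and narrow in 230-238, with medians of 1479.5 bp over the 80 peaks and 947 bp over the 71, beside 1542 and 1590.5 bp over the whole lists. Of these peaks, 53 in Scid.adh.2C2 and 57 in 230-238 contained no TSS of a histone gene.

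The marked sequence was more extensive in Scid.adh.2C2. Over the 448.86 kb within 2500 bp of the outermost starts of the sub-clusters, peaks covered 149 kb (33.1%) in Scid.adh.2C2 and 87.0 kb (19.4%) in 230-238. The 81.0 kb in common made up 54.4% of the Scid.adh.2C2 cover and 93.0% of that of 230-238. Over the whole lists the order was the opposite, with 77.6% of the Scid.adh.2C2 cover and 55.8% of the 230-238 cover in common. For the 57 genes marked in both lines, the covered part of the window had a median of 3793 bp in Scid.adh.2C2 and 2377 bp in 230-238, and it was longer in Scid.adh.2C2 for 52 of them. Over all genes marked in both lines it was longer in Scid.adh.2C2 for 25.9%. The 5 genes with more cover in 230-238 were Hist1h2ai, Hist1h2bl, Hist2h2be, Hist2h3c1 and Hist4h4. For Hist4h4 the covered lengths were 3371 bp and 3571 bp, and for Hist2h3c1 they were 3081 bp and 3388 bp. The peaks of each line were called at an unknown depth, and its part in this difference was not tested.

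The widest peak near a histone gene differed between the lines. In Scid.adh.2C2 it was 4984 bp wide (chr13:23618768-23623751) and held the start of Hist1h1e, a linker histone gene, and an annotated start of the H2B gene Hist1h2be, with a fold enrichment of 31.3. This start of Hist1h2be lies 35.2 kb from the start of its coding sequence, at which a separate set of 3 peaks had a best fold of 17.0 in Scid.adh.2C2 and 2 peaks had a best fold of 14.9 in 230-238. In 230-238 the widest peak was 4844 bp (chr3:96218667-96223510) and held the starts of Hist2h2ab, Hist2h2ac and Hist2h2be, with a fold of 25.1.

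By fold enrichment, the best peaks of histone genes were near the middle of the lists. The best peak of a gene was the one with the highest fold enrichment over background among those in its window. Its median over marked histone genes was 21.1 in Scid.adh.2C2, with a range from 6.87 to 35.3, beside 27.1 over all marked genes. In 230-238 it was 14.9, with a range from 8.62 to 29.8, beside 21.7. Folds are comparable only within a list, so that each was also placed by percentile among the peaks of its own list. The median percentile was 52.0 in Scid.adh.2C2 and 48.1 in 230-238 for histone genes, and 71.2 and 75.2 for all marked genes. Taken singly, the 80 and 71 distinct peaks near histone genes stood lower, with a median fold of 15.1 (percentile 36.8) in Scid.adh.2C2 and 12.4 (percentile 37.5) in 230-238, beside list medians of 20.3 and 15.4.

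The highest best folds in Scid.adh.2C2 belonged to Hist1 genes. Hist1h4k, an H4 gene, ranked first with 35.3-fold (percentile 93.2), while in 230-238 its best peak was 11.9-fold (percentile 35.4). The pair Hist1h2ac and Hist1h2bc shared a peak of 31.7-fold in Scid.adh.2C2 (percentile 85.2) and one of 15.6-fold in 230-238 (percentile 50.9). Hist1h1e and Hist1h2be followed with the 31.3-fold peak described above (percentile 84.3), against 16.0-fold (percentile 52.4). Hist1h3c and Hist1h2bb shared a peak of 29.9-fold (percentile 80.1), against 14.6-fold (percentile 47.0). The last of the first 10 were Hist2h2ab, Hist2h2ac and Hist2h2be.

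The highest best folds in 230-238 belonged mostly to Hist2 genes. Hist2h3b and Hist2h2bb, which encode H3 and H2B, shared a peak of 29.8-fold in 230-238 (percentile 97.1) and one of 27.8-fold in Scid.adh.2C2 (percentile 73.5). Hist2h3c2 and Hist2h2aa2 followed with 25.4-fold (percentile 88.0), against 16.5-fold (percentile 40.1) in Scid.adh.2C2. The peak at Hist2h2ab, Hist2h2ac and Hist2h2be had 25.1-fold (percentile 87.2), against 28.4-fold (percentile 75.6). Hist1h2bh and Hist1h3f came next with 23.0-fold (percentile 80.2), against 26.4-fold (percentile 68.9), and Hist1h1b with 20.8-fold (percentile 71.7), against 21.1-fold (percentile 52.0), from peaks it shared with Hist1h3i.

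Over the 10 Hist2 genes the median percentile was 68.2 in Scid.adh.2C2 and 87.2 in 230-238, and 7 genes had the higher percentile in 230-238. These 7 were Hist2h3b with Hist2h2bb, Hist2h3c2 with Hist2h2aa2, and Hist2h2ab with Hist2h2ac and Hist2h2be, each group sharing a best peak. Over the 44 Hist1 genes marked in both lines the medians were 52.0 and 46.2, and 24 had the higher percentile in Scid.adh.2C2. A shared peak enters these medians and counts once per gene, so that they do not rest on independent peaks. The other Hist2 genes were Hist2h2aa1 and Hist2h3c1, whose shared best peak had 24.6-fold in Scid.adh.2C2 (percentile 63.0) and 17.0-fold in 230-238 (percentile 56.3), and Hist2h4, with 21.5-fold (percentile 53.1) and 14.3-fold (percentile 45.7). Of the Hist3 genes, Hist3h2ba had 28.2-fold (percentile 74.7) in Scid.adh.2C2 and 12.3-fold (percentile 37.0) in 230-238, and Hist3h2a had 20.7-fold (percentile 50.6) and 16.6-fold (percentile 54.6). Hist4h4, the only replication-dependent histone gene on chromosome 6, stood at percentile 25.4 in Scid.adh.2C2 (10.7-fold) and 65.9 in 230-238 (19.5-fold). In each line a single peak covered its start and its whole coding sequence. Of the Hist2 genes, Hist2h2aa1 and Hist2h2aa2 had identical coding sequences. No coding stretch was unique in these, Hist2h3c1 or Hist2h3c2. Within 250 bp of the TSS, 6.81% to 15.5% of their stretches were unique. None of these genes had a TSS inside a peak. The gaps over their starts ran from 739 to 1920 bp in Scid.adh.2C2 and from 756 to 1889 bp in 230-238. The part of sequence identity in their gaps and ranks was not tested.

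**Figure D4:**
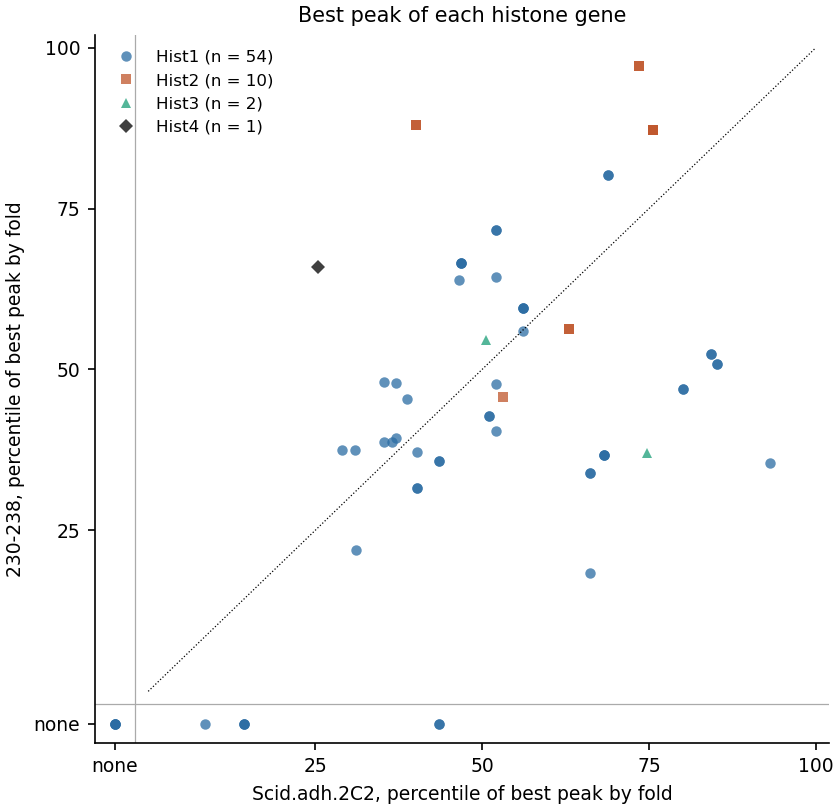
Percentile of the best peak by fold enrichment within the Scid.adh.2C2 list (horizontal axis) and within the 230-238 list (vertical axis) for the 67 histone genes, with the dotted line at equal percentiles and genes without a peak at "none". Genes sharing a best peak fall on the same point, drawn darker. Most Hist2 genes and Hist4h4 lie above the line, while Hist1h4k lies at 93.2 and 35.4.

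The 6 genes marked in Scid.adh.2C2 only and 2 of the 4 marked in neither form the right part of the sub-cluster from Hist1h2bl to Hist1h2br. Hist1h2an and Hist1h2bp, a divergent H2A and H2B pair, had 4 and 3 peaks in Scid.adh.2C2 with a best fold of 17.9 (percentile 43.6), and in 230-238 the nearest peak lay 2681 bp and 2924 bp from their starts, just outside the window. The next 3 genes, Hist1h2bq, Hist1h2ao and Hist1h4m, rested on 1 peak of 371 bp and 7.90-fold (percentile 14.4) in Scid.adh.2C2, with an IDR score of 647 of a possible 1000. Hist1h4n rested on 1 peak of 867 bp and 6.87-fold (percentile 8.47). Hist1h2ap and Hist1h2br had their nearest peak in Scid.adh.2C2 at 2583 bp and 2819 bp. The marked gene farthest from its peak in Scid.adh.2C2 was Hist1h2bq, at 1978 bp, and in 230-238 it was Hist1h4b, at 2397 bp. With a window of 5000 bp, 65 histone genes were marked in Scid.adh.2C2 and 59 in 230-238, and with one of 1000 bp, 60 and 53.

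Apart from Hist1h2an and Hist1h2bp, these genes lie in a duplicated block. Hist1h2bq and Hist1h2br had identical coding sequences, as did Hist1h2ao and Hist1h2ap, and Hist1h4m and Hist1h4n. Of the 32-base stretches in the windows of these 6 genes, between 1.67% and 23.0% were unique, where the median over all 67 genes was 85.9%. The sequences between the starts of the 2 divergent pairs show the duplication, and all 237 bases of the second are contained in the 269 bases of the first.
Hist1h2ao to Hist1h2bq (chr13:21810197-21810465, minus strand): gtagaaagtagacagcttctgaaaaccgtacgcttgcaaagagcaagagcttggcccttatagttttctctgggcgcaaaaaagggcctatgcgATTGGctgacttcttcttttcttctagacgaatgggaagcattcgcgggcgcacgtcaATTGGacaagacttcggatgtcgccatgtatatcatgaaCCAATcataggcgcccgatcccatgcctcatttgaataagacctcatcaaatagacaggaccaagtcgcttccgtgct
Hist1h2ap to Hist1h2br (chr13:21833507-21833743, plus strand): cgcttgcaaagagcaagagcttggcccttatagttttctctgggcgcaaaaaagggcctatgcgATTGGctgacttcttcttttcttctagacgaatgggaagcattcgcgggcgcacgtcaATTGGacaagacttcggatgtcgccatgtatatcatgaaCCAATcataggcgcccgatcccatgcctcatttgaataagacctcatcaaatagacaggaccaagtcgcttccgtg
No stretch of either region was unique, and neither region held a peak in either line. Whether reads from this block were discarded or spread over both copies was not tested, so that the absence of a strong peak at these 6 genes cannot be told apart from a lack of placeable reads. Hist1h2an and Hist1h2bp lie outside this block, and 85.9% and 86.2% of the stretches in their windows were unique. Within 250 bp of the TSS these shares were 53.0% and 76.4%, and in the coding sequences 11.4% and 15.9%. The part of sequence identity at this pair was not tested.

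The remaining unmarked genes, Hist1h2aa and Hist1h2ba, encode H2A and H2B variants known for their expression in testis. Their nearest peak lay 168963 bp and 168657 bp away in Scid.adh.2C2 and 171359 bp and 171053 bp away in 230-238. Of the stretches in their windows 94.1% were unique. The central 300 bases between the starts are shown because this promoter holds elements also found in marked pairs. It has 2 TATA boxes, 4 CCAAT boxes and 1 octamer. All marked H2A and H2B pairs had CCAAT boxes, while only some had a TATA box or an octamer.
Hist1h2aa to Hist1h2ba (chr13:23934160-23934459, minus strand): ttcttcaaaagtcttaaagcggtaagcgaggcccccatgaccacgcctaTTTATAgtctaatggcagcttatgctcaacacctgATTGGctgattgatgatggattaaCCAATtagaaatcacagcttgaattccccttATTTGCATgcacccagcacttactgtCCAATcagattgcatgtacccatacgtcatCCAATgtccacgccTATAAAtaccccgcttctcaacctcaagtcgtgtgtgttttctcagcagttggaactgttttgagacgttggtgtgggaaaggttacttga
Hist1h1t, the testis-specific linker histone gene, was counted as marked in both lines through a peak downstream of its start. This peak lay 871 bp away in Scid.adh.2C2 (16.6-fold) and 1537 bp away in 230-238 (11.0-fold) and was also the best peak of the H4 gene Hist1h4c. Neither the start nor the coding sequence of Hist1h1t was covered in either line, although 100% of the stretches in its coding sequence were unique.

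The histone types differed in sequence identity. By the longest annotated coding sequence of each gene, the 13 H4 genes encoded 1 protein sequence and the 12 H3 genes 3. The 18 H2A genes encoded 9, the 18 H2B genes 12 and the 6 H1 genes 6. These counts include longer annotated forms, such as Hist2h3c1 with 181 residues beside 136 for Hist1h3h. Hist1h2bp with 138 and Hist1h2bq and Hist1h2br with 134 stand beside 126 for Hist1h2bl. Of the stretches in the coding sequences, a median of 83.8% was unique for H1, 22.3% for H4, 14.6% for H2B, 11.8% for H2A and 9.15% for H3. A TSS lay inside a peak in 3 of 6 marked H1 genes in Scid.adh.2C2 and 1 of 6 in 230-238, in 7 of 16 and 4 of 14 H2A genes, in 8 of 16 and 4 of 14 H2B genes, in 6 of 12 and 5 of 12 H3 genes, and in 5 of 13 and 3 of 11 H4 genes. The median percentile of the best peak in Scid.adh.2C2 ran from 40.3 for H4 to 67.2 for H2B, and in 230-238 from 45.7 for H4 to 57.9 for H3. Genes of these groups share peaks, and this order has no error to be read against.

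**Figure D5:**
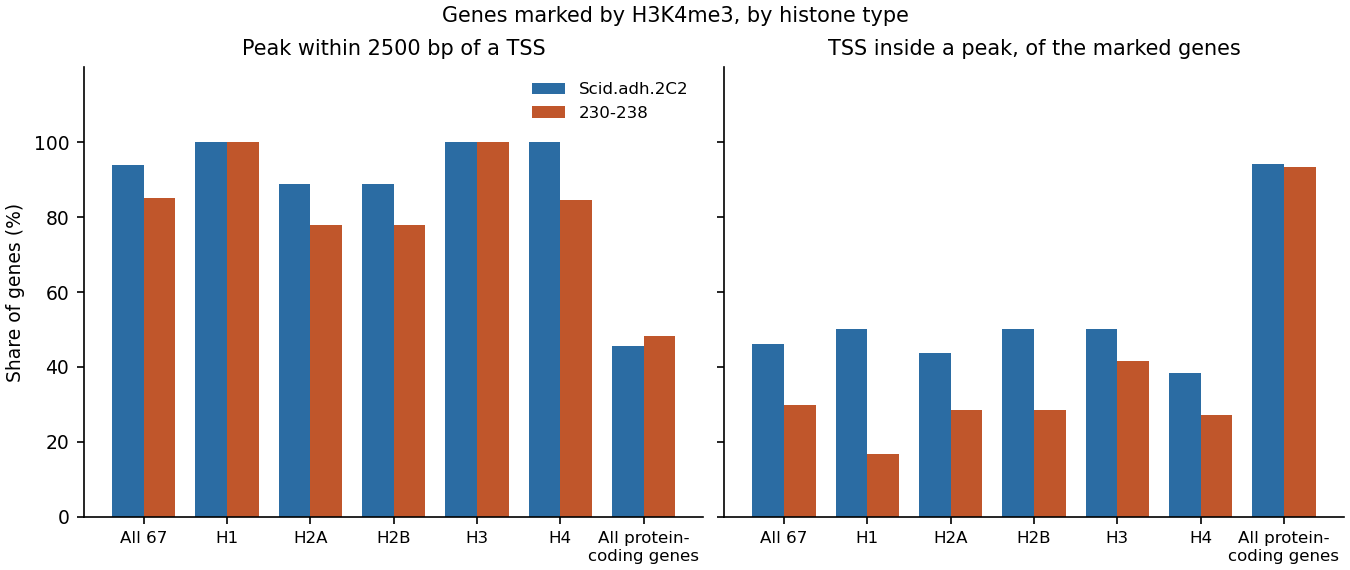
Share of genes (vertical axis, %) with a peak within 2500 bp of a TSS (left) and, among these, with a TSS inside a peak (right), for all 67 histone genes, each histone type and all protein-coding genes, in Scid.adh.2C2 and 230-238. The left panel shows 94.0% and 85.1% of histone genes against 45.5% and 48.2% of all genes, and the right panel shows 46.0% and 29.8% against 94.2% and 93.3%.

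The H1 genes apart from Hist1h1t encode the main linker histones of dividing somatic cells. Hist1h1b had the TSS and the whole coding sequence inside a peak in both lines, with best folds of 21.1 in Scid.adh.2C2 and 20.8 in 230-238. Hist1h1e and Hist1h1c had the start inside a peak in Scid.adh.2C2 and a gap of 666 bp and 298 bp over it in 230-238. Hist1h1a had a gap of 138 bp over the start in Scid.adh.2C2, with the coding sequence fully covered, and peaks only upstream of the start in 230-238. Hist1h1d had gaps of 946 bp and 3394 bp, but its GENCODE start lies 1770 bp upstream of the RefSeq start.

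The promoters of the histone genes share sequence elements that the definition of the set did not use. In the RefSeq windows from 250 bases before to 50 after the start, available for 62 of the 67 genes and 21262 protein-coding promoters in all, TATAAA on either strand was found in 56.5% of histone promoters and 12.6% of all promoters. CCAAT on either strand was found in 85.5% and 38.2%, and the octamer ATTTGCAT in 21.0% and 1.66%. CCAAT was found in all 50 windows of H1, H2A, H2B and H3 genes and in 3 of 12 windows of H4 genes. The octamer was found in 7 of 18 H2A and 6 of 16 H2B windows and in no H1, H3 or H4 window. The windows of a divergent H2A and H2B pair overlap, so that a single site can count for both genes, as at Hist1h2ae and Hist1h2bg. These shares are therefore not counts of independent promoters. The median ratio of observed to expected CpG was 0.748 for histone promoters and 0.567 for all, and the median GC content was 45.3% and 56.3%. Of the marked genes in Scid.adh.2C2, 26 with a TSS inside a peak and 32 without one had such a window. TATAAA was found in 57.7% and 56.2% of these, CCAAT in 88.5% and 81.2%, and the octamer in 23.1% and 15.6%. A match of these short words is not a bound site.

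The 3′ stem-loop that marks a replication-dependent transcript was searched for in GRCm38 in the 200 bases after each stop codon, as a 6-base stem with a 4-base loop in its usual consensus. It was found in 51 of the 67 genes, 25 to 62 bases after the stop codon. The 2 most frequent forms are shown whole, in capitals, since they are the element by which these genes are processed.
Form of 38 genes: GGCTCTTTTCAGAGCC
Form of 8 genes: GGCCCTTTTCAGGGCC
The other 5 matches differed from these within the stem or in the last base of the loop. The unmarked Hist1h2aa held the most frequent form 43 bases after its stop codon. The consensus was not matched at 16 genes, among them Hist2h2be, which was marked in both lines, and Hist1h1t.

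The genes that act on histone genes and histone proteins were mostly marked in both lines. Of 13 genes for the transcription and 3′ end processing of histone genes, 13 were marked in both lines, beside 42.2% of all protein-coding genes. All 13 had a TSS inside a peak, beside 94.2% and 93.3% of all marked genes in Scid.adh.2C2 and 230-238. They include Npat, the organiser of histone gene transcription, with 33.3-fold (percentile 89.3) in Scid.adh.2C2 and 29.9-fold (percentile 97.3) in 230-238, and Slbp, with 29.8-fold (percentile 79.9) and 26.9-fold (percentile 92.2). Lsm11, part of the U7 particle that cleaves histone transcripts, had 13.4-fold (percentile 32.8) and 23.1-fold (percentile 80.6). Of 8 histone chaperone genes, 8 were marked in Scid.adh.2C2 and 7 in 230-238, beside 45.5% and 48.2% of all protein-coding genes. Many of the listed genes have several annotated TSSs, up to 27 at Atrx, and so more chances to overlap a peak. Nasp, a chaperone of H1 and of H3 with H4, had 39.2-fold (percentile 97.6) in Scid.adh.2C2 and no peak in its window in 230-238. Of 13 replication-independent histone genes, 8 were marked in both lines, and H1f0, H1fnt, H1foo, H1fx and H2afy2 were marked in neither. H3f3b, which encodes H3.3, had 37.2-fold (percentile 95.8) and 26.6-fold (percentile 91.3). The median percentile of the 8 marked genes was 80.3 in Scid.adh.2C2 and 90.7 in 230-238, above the 52.0 and 48.1 of the replication-dependent genes, and a TSS lay inside a peak in 7 of 8 and 8 of 8.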

How the data were processed

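Per the study's methods and the submitters' processing notes, the authors trimmed reads with Trim Galore 0.6.7, aligned them to mm10 (GRCm38) with Bowtie2 2.4.4 and called narrow peaks with MACS2 2.2.7.1 against the input of each line, then kept the peaks that the IDR comparison of both replicates passed. How reads with several positions or duplicates were treated is not given in the sources used here. The deposited lists give each peak's position, its fold enrichment over background (a ratio), the −log10 p of the peak caller and an IDR score of at most 1000. The fold enrichment, position and width carry the results here, and the −log10 p and the score entered alternatives only. Depth is unknown, so no interval is given.

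Peaks were joined to GENCODE vM21 TSSs with Python 3.11.15, pandas 2.3.3 and numpy 2.4.6. Sequence uniqueness was counted with numba 0.67.0 over the assembled chromosomes, coding sequences were translated with biopython 1.88, and matplotlib 3.10.9 drew the figures. All 67 genes matched a RefSeq entry, and promoter windows came from RefSeq on GRCm38. Divergent pairs other than histone pairs and ribosomal protein genes were added as comparisons later. The genes and lists were chosen with earlier results of these data known. Genes named are those marked in 1 line or in neither, the 10 with the highest best fold in each line, the Hist2, Hist3 and Hist4 genes, those in the widest peaks, the divergent pairs and members of the lists. The H1 genes and other single genes were named after their values were seen. The scripts were tested on simulated peaks. Alternatives changed the window, the peak score, the number of peaks, the gene starts and the joining of peaks.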

Additional observations from a re-analysis of the deposited data

How the results depend on the processing

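Over 13 results and 11 settings, 97 of 111 alternative values stayed within 1.5 times of the value reported and 14 moved further. When a peak had to contain an annotated TSS, 29 histone genes were marked in Scid.adh.2C2 and 17 in 230-238 (63 and 57 with the 2500 bp window). These are 43.3% and 25.4% of the histone genes, beside 42.8% and 44.9% of all protein-coding genes under the same setting, so that the higher share of marked histone genes does not hold there. They came from 27 and 14 distinct peaks (80 and 71). The marked genes then divided into 13 with a mark in both lines (57), 16 with one in Scid.adh.2C2 alone (6) and 4 with one in 230-238 alone (0). This setting leaves a window of 1 base, so that it gives no covered length. The median covered length of marked genes followed the window by construction, with 1651.5 bp in Scid.adh.2C2 and 1241 bp in 230-238 at 1000 bp and 6185 bp in Scid.adh.2C2 at 5000 bp. With equal numbers of peaks taken by −log10 p, 10 genes had a peak in Scid.adh.2C2 alone, and with peaks of the highest IDR score only, 3. Joining peaks at most 1000 bp apart, an alternative chosen after seeing the data, gave 54 and 38 genes with a TSS inside a peak (29 and 17). No paired analysis was possible because each line has 1 combined peak list, and for the same reason no replicate could be left out in turn. Unknown depth limits every count of unmarked genes and every comparison of covered length between the lines.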

Other observations

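Of the other protein-coding genes, 3 overlapped the sub-clusters with their 2500 bp flanks and are named here after their values were seen. Trim17, beside the Hist3 genes, had the same best peak as Hist3h2a, with 20.7-fold in Scid.adh.2C2 and 16.6-fold in 230-238. Bola1, beside Hist2h2ab, had 33.2-fold and 25.1-fold. In 230-238 this was the fold of the peak at Hist2h2ab, Hist2h2ac and Hist2h2be, which also overlaps Bola1. Hfe, an iron regulator among the Hist1 genes, had 25.5-fold and 18.0-fold. All 3 were marked in both lines.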
